A study of Mus musculus with 10 samples.

Results

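The subunits of the NMDA and AMPA receptors are described here in cultured cerebellar granule precursors of the mouse, the proliferating cells from which granule neurons arise. The genes taken were 6 NMDA receptor subunits (Grin1, Grin2a, Grin2b, Grin2c, Grin2d and Grin3a) and 4 AMPA receptor subunits (Gria1 to Gria4), with every probe set annotated to each symbol on the Mouse430_2 array. That gave 21 probe sets, 11 for NMDA and 10 for AMPA subunits, out of 45101 on the array. No probe set carries the symbol Grin1 in the annotation used, so 9 of the 10 genes have a measurement. Of these, 7 passed the filter on dim genes and were tested among 11405 genes, out of 18193 genes with a probe set. Grin2a and Grin2c did not pass it.

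The 4 groups were Bmi1 knockout (Bmi-1-/-) cultures given sonic hedgehog (Shh) on 2 arrays (replicates 8 and 10), wild type cultures given Shh on 2 arrays (7 and 9), untreated knockout cultures on 3 arrays (2, 4 and 6) and untreated wild type cultures on 3 arrays (1, 3 and 5). All cells came from cerebella of pups at postnatal days 5 to 7 per the sample labels, and growth lasted 24 hours, with 10% fetal calf serum and 20 mM KCl in the medium. Shh, where given, was present for 24 hours at a concentration labelled as 3 mg/ml. It is not stated whether untreated cultures had the same total time in culture, nor how many animals went into each, so p-values cover only array-to-array spread. Wild type replicate 3 was used as untreated, as titled, although its treatment note mentions Shh conditionally.

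AMPA receptors are glutamate-gated channels built from 4 subunits and carry fast excitatory transmission, and the Gria2 subunit, once its transcript is edited, makes the channel nearly impermeable to calcium. NMDA receptors need the obligatory subunit Grin1 with Grin2 or Grin3 subunits, open only when glutamate and a co-agonist are bound and magnesium block is relieved, and let calcium in. In the cerebellum, Grin2b and Grin2d are known as subunits of early development and Grin2a and Grin2c as subunits of more mature granule neurons, and Gria1 with Gria4 forms the AMPA receptors of Bergmann glia.

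The values are signal intensity on a linear scale, set by the authors to the same trimmed mean of 500 on each array. The median signal was 66.8 to 72.3 on arrays of Shh-treated and 84.8 to 91.2 on arrays of untreated cultures. Signal of the 18S control was 6301 on untreated knockout replicate 6 and 2030.3 on untreated wild type replicate 1, with 219 to 649 elsewhere. By 1 of its 2 probe sets, Bmi1 itself read 3416 and 3432 in knockout against 4165 and 4515 in wild type cultures with Shh, and 3416 to 3904 in knockout against 3673 to 4253 in wild type cultures without it. Its other probe set read 2072 to 2219 in knockout and 2042 to 2555 in wild type cultures with Shh, and 1587 to 2163 and 1731 to 2274 in untreated knockout and wild type cultures. The sources used here do not give which part of Bmi1 was deleted, and a probe set outside that part checks nothing about the genotype.

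Of the 7 subunit genes tested, 6 were lower in Shh-treated than in untreated cultures, in the knockout and again in the wild type: Gria1, Gria3, Gria4, Grin2b, Grin2d and Grin3a. Among all genes tested, 17% were lower with Shh in knockout and 19.8% in wild type cultures, and 28% and 33.8% changed in either direction. The median log2 difference of the 7 genes was -0.58 in knockout and -1.22 in wild type cultures, against -0.01 in each over all genes tested. A gene was counted as changed at an adjusted p under 0.05 in a linear model fitted across all genes with limma, with Benjamini-Hochberg adjustment. Each gene is represented by its brightest probe set, and because probe sets differ in binding, signals are not read as levels between genes. The filter was on the mean over all arrays, so a gene dim with Shh could pass it through its untreated arrays alone. Among the 7 subunit genes, only Grin2d was under the filter with Shh, in wild type cultures alone, and it passed through the other groups. The cultures are mixtures, so fewer cells of a type and less RNA per cell cannot be told apart.

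**Figure D1:**
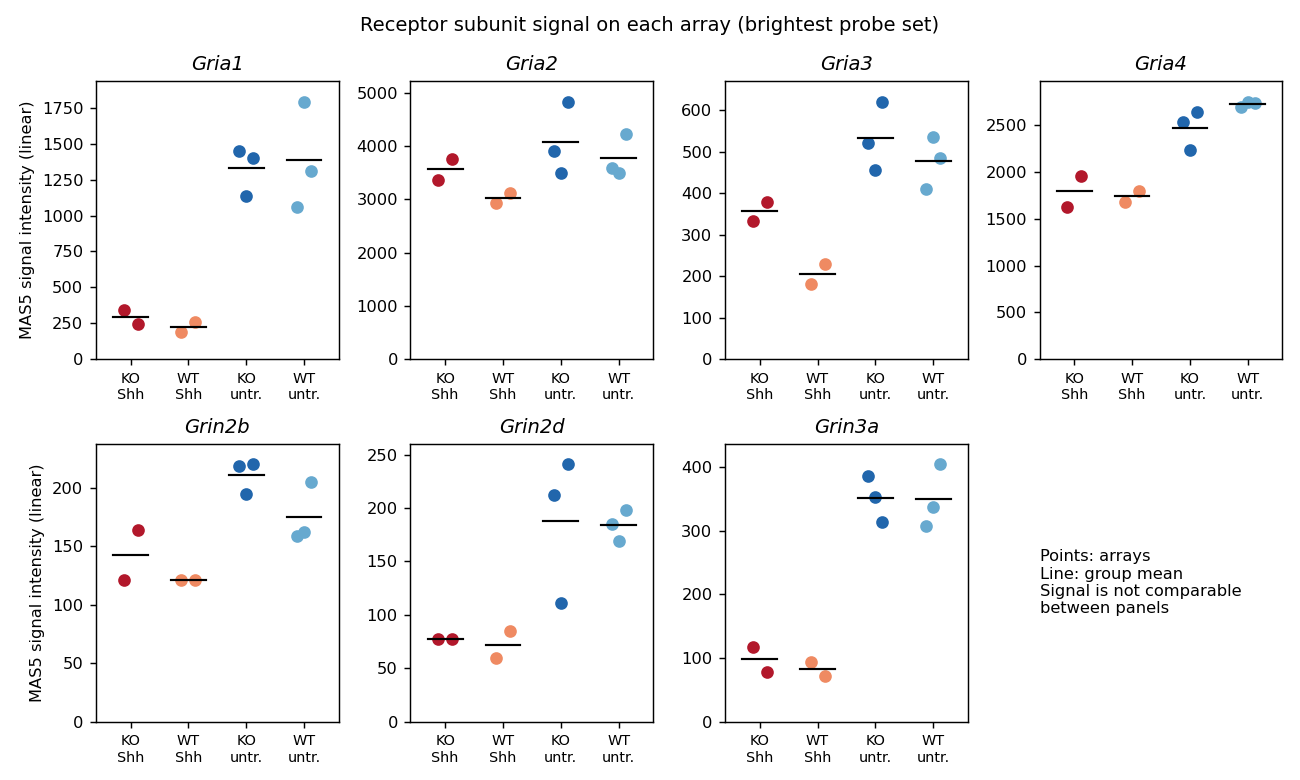
Signal intensity (linear, vertical axes starting at 0) of the 7 subunit genes tested, by the brightest probe set. Points are arrays, lines are group means, and groups run from knockout with Shh and wild type with Shh to untreated knockout and untreated wild type. Gria1 lies at 186 to 344 on the Shh arrays and at 1062 to 1793 on the untreated ones, whereas the Gria2 values of the 2 treatments overlap.

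Gria1, an AMPA receptor subunit on chromosome 11 (11:57011571-57330244, GRCm38.p6), had the largest difference of the 7 genes in both genotypes. Its signal was 344 and 243 in knockout and 186 and 261 in wild type cultures with Shh, against 1449, 1139 and 1404 in untreated knockout and 1062, 1793 and 1311 in untreated wild type cultures. All 4 treated arrays lay below all 6 untreated arrays. The gene was 4.58-fold lower with Shh in knockout (log2 difference -2.19, SE 0.25, adjusted p = 0.000352) and 6.17-fold lower in wild type cultures (-2.62, SE 0.25, adjusted p = 9.13e-05). Its second probe set gave group means of 258 ± 21.6 in knockout and 228 ± 18.2 in wild type cultures with Shh (SD, n = 2 each), against 1170.2 ± 184 in untreated knockout and 1595 ± 417 in untreated wild type cultures (n = 3 each). Its log2 differences with Shh were -2.17 in knockout and -2.77 in wild type cultures, and both passed the test.

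Gria2, the subunit that sets calcium permeability (3:80681450-80804227), was the 1 tested subunit not called with Shh in either genotype. It read 3368 and 3769 in knockout and 2933 and 3115 in wild type cultures with Shh, and 3915, 3497 and 4839.9 in untreated knockout and 3597, 3498 and 4226 in untreated wild type cultures. Both treated wild type arrays lay below the 3 untreated ones, while the knockout arrays of the 2 treatments overlapped. Its log2 difference was -0.18 in knockout (SE 0.15, 95% interval -0.52 to 0.15, adjusted p = 0.394) and -0.32 in wild type cultures (SE 0.15, 95% interval -0.65 to 0.02, adjusted p = 0.133), and none of its 3 probe sets passed the test in either genotype. When the arrays were instead set to the same median signal, its values were 0.11 in knockout and 0.03 in wild type cultures, while the median of all genes tested moved to 0.29 and 0.33. Relative to the median gene, Gria2 stood at -0.18 in knockout and -0.30 in wild type cultures under both scalings.

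The log2 signal of Gria1 minus that of Gria2 on the same array is the same under any scaling that multiplies an array by a constant. It lay between -3.98 and -3.29 on the 4 Shh arrays and between -1.79 and -0.96 on the 6 untreated arrays, without overlap. The difference between Gria3 and Gria2 was -4.02 to -3.31 on Shh and -3.14 to -2.71 on untreated arrays. For Gria4 against Gria2 the ranges overlapped, at -1.05 to -0.79 on Shh and -0.87 to -0.34 on untreated arrays. Only the shift between treatments can be read from such differences, since each gene has its own probe set.

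Gria3, an AMPA subunit gene on the X chromosome (X:41400819-41678601), was 1.49-fold lower with Shh in knockout cultures (log2 -0.57, SE 0.17, adjusted p = 0.0352) and 2.33-fold lower in wild type cultures (-1.22, SE 0.17, adjusted p = 0.000801). The signal was 332 and 379.6 in knockout and 180.2 and 230.3 in wild type cultures with Shh, against 520.1, 457 and 620.5 in untreated knockout and 409, 536 and 485 in untreated wild type cultures. Every treated array lay below every untreated one, and the treated knockout arrays lay between the treated wild type arrays and the untreated ones. The knockout difference lost its call without untreated knockout replicate 2 (adjusted p = 0.0696) or 6 (0.0959), untreated wild type replicate 5 (0.0508), or knockout Shh replicate 8 (0.194) or 10 (0.0758). It was also lost with arrays set to the same median (log2 -0.28, 0.152), with quantile normalization (0.0659), with no filter (0.0741) or a looser one (0.0592), and with the mean of both probe sets (0.140). The dimmer of its 2 probe sets averaged 113 ± 30.9 in knockout and 70.5 ± 24.7 in wild type cultures with Shh, against 138 ± 24.2 and 125 ± 4.76 in untreated knockout and wild type cultures. That probe set did not pass in knockout (log2 -0.29, adjusted p = 0.442) and passed in wild type cultures (-0.88, adjusted p = 0.0290).

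Gria4 is an AMPA subunit gene on chromosome 9 (9:4417893-4796234), and the bases before its start are shown because it is the one measured member whose promoter, as tabulated by RefSeq for GRCm38.p6, lies wholly outside the annotated gene. The window covers the 250 bases upstream of the start, chr9:4796235-4796484 on the minus strand. The CG dinucleotides are in capitals.
Gria4: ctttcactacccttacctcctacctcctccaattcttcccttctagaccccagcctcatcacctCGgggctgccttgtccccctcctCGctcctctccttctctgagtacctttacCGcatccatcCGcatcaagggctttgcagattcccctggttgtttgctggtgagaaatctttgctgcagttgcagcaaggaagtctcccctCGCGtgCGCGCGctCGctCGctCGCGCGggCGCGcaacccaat
The window holds 16 CG dinucleotides and 58.8% G or C, against medians of 6 and 52.4% over 32851 tabulated promoters, of which 37.8% hold at least 10. Promoters were tabulated for 5 of the 10 genes, Grin1 (27 CG dinucleotides), Gria2 (19), Gria4, Grin2c (15) and Grin2d (9). On both strands, the Gli site GACCACCCA (in 0.225% of all promoters), the left part of the Rest site TTCAGCACC (0.301%) and the E-box CAGATG (14.4%) matched in 0 of these 5, and the GC box GGGCGG (32.7%) matched in Grin2c alone. The absence of a match says only that these letters are not in these windows.

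With Shh, Gria4 read 1628 and 1958 in knockout and 1683 and 1797 in wild type cultures, against 2541, 2237 and 2644 in untreated knockout and 2692.5, 2754 and 2735 in untreated wild type cultures. The treated arrays again lay below all untreated arrays, and the gap was small. The gene was 1.38-fold lower in knockout (log2 -0.47, SE 0.11, adjusted p = 0.0142) and 1.57-fold lower in wild type cultures (-0.65, SE 0.11, adjusted p = 0.00235). The knockout call was lost without knockout Shh replicate 8 (adjusted p = 0.126), with arrays set to the same median (log2 -0.17, 0.217) and with only the compared arrays (0.0515). Its 2 dimmer probe sets did not pass, with log2 differences of -0.22 and 0.22 in knockout and -0.66 and -0.07 in wild type cultures. With the mean of all 3 probe sets the values were -0.16 in knockout (adjusted p = 0.512) and -0.46 in wild type cultures (adjusted p = 0.0489).

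Among the NMDA receptor subunits, Grin3a, which gives receptors of low calcium permeability and peaks early in postnatal life, had the largest difference. This gene on chromosome 4 (4:49661611-49846023) read 118 and 78.1 in knockout and 93.5 and 72.6 in wild type cultures with Shh, against 385, 354 and 314 in untreated knockout and 307, 337 and 404 in untreated wild type cultures. All treated arrays were well below all untreated ones. It was 3.65-fold lower with Shh in knockout (log2 -1.87, SE 0.20, adjusted p = 0.000249) and 4.21-fold lower in wild type cultures (-2.08, SE 0.20, adjusted p = 9.79e-05). Its other 2 probe sets passed as well, at -1.56 and -1.03 in knockout and -1.35 and -1.27 in wild type cultures.

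Grin2d, a subunit of early NMDA receptors with slow closing kinetics (7:45831883-45871194), read 77.4 and 77.1 in knockout and 59.2 and 84.7 in wild type cultures with Shh. Untreated cultures gave 212, 111 and 241 in the knockout and 185, 169 and 198 in the wild type. The lowest untreated array, knockout replicate 4, was still above all treated arrays. Grin2d was 2.31-fold lower with Shh in knockout (log2 -1.21, SE 0.29, adjusted p = 0.0148) and 2.59-fold lower in wild type cultures (-1.38, SE 0.29, adjusted p = 0.00670). The knockout call was lost without knockout Shh replicate 8 (adjusted p = 0.0725) or 10 (0.0700), and the wild type call without wild type Shh replicate 7 (0.0594). Its second probe set was below the filter, at 4.41 to 54.9 on treated and 22.9 to 66.9 on untreated arrays.

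Grin2b, the subunit that pairs with Grin1 in immature granule cells (6:135713221-136173615), was lower by a similar factor in both genotypes. With Shh it read 121 and 164 in knockout and 121 and 122 in wild type cultures, against 218, 195 and 220.1 in untreated knockout and 159, 162 and 205 in untreated wild type cultures. Treated knockout replicate 10, at 164, overlapped the untreated wild type arrays, though within each genotype the treatments did not overlap. The log2 difference was -0.58 in knockout (SE 0.16, adjusted p = 0.0221) and -0.52 in wild type cultures (SE 0.16, adjusted p = 0.0298), or 1.50-fold and 1.43-fold lower. In knockout the call was lost without untreated replicate 2 (adjusted p = 0.0566) or 6 (0.0595) or Shh replicate 8 (0.183), and in wild type without untreated replicate 5 (0.0830) or Shh replicate 7 (0.113) or 9 (0.117). It was also lost in both genotypes under the other 2 scalings of the arrays (0.119 and 0.124 in knockout, 0.337 and 0.370 in wild type) and with a variance trend and robust fit (0.0567 in knockout and 0.0766 in wild type). In wild type it was lost too with no filter (0.0599) and with the looser filter (0.0504). Of its other 3 probe sets, 1 was tested and did not pass, at -0.03 in knockout and -0.68 in wild type cultures, and 2 were below the filter.

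The subunits of mature granule neurons were near the lower limit of the arrays. Signals under 20.9, the 25th percentile of all values, were raised to it before log2 was taken. Grin2a read 13.7 and 21.8 in knockout and 24.4 and 38.9 in wild type cultures with Shh, and 9.10 to 21.7 in untreated knockout cultures, while all 3 untreated wild type arrays were under the floor. Grin2c read 38.7 and 25.8 in knockout and 6.25 and 50.8 in wild type cultures with Shh, and 43.2 to 92.8 in untreated knockout and 12.4 to 75.2 in untreated wild type cultures. For Grin2c both treated knockout arrays lay below the untreated knockout arrays, the wild type arrays of the 2 treatments overlapped, and 2 of 10 arrays were at the floor. For Grin2a 6 of 10 arrays were at the floor. With no filter, neither passed in any comparison, and the lowest adjusted p was 0.0614, for Grin2a with Shh in wild type cultures (log2 0.56).

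Counted by probe set, 9 of the 16 that passed the filter were lower with Shh in knockout and 10 of 16 in wild type cultures, and 0 were higher. Among all 22519 probe sets tested, 13.6% and 17.2% were lower. Gria1 and Grin3a were lower on every probe set they have in both genotypes, and Gria2 on none. Gria3 was lower on 1 of 2 in knockout and on both in wild type cultures. Gria4 was lower on 1 of 3, and Grin2b on 1 of the 2 tested and Grin2d on the 1 tested, in each genotype.

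**Figure D2:**
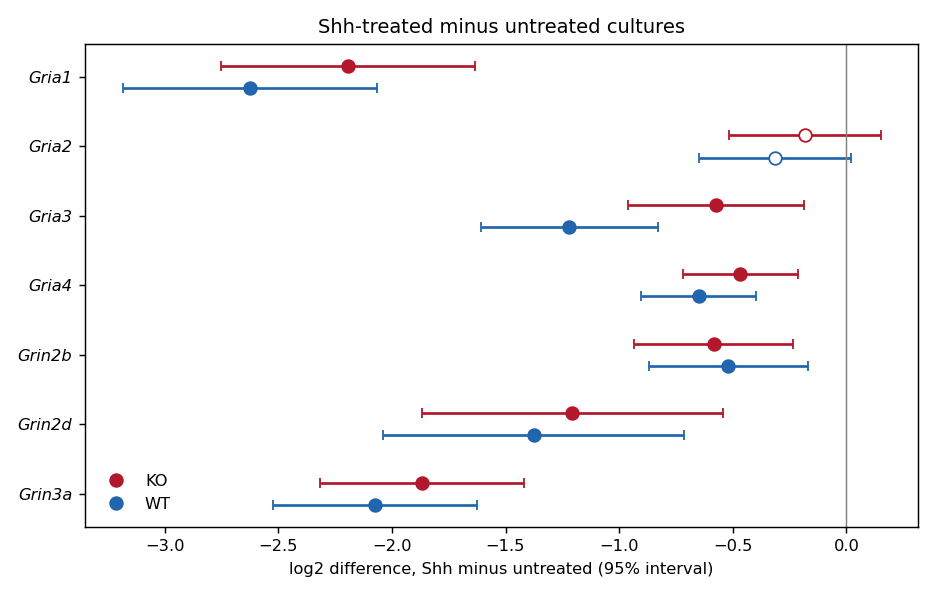
Log2 difference of Shh-treated minus untreated cultures for the 7 subunit genes tested, with 95% intervals, in knockout (red, upper) and wild type cultures (blue, lower). Filled points passed an adjusted p of 0.05 and open points did not. Gria1 and Grin3a lie near or below -2, and the intervals of Gria2 include 0.

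The calls depended on which arrays were used, treated and untreated, in both genotypes. Without knockout Shh replicate 8, 2 of the 7 genes were called in knockout cultures, Gria1 and Grin3a. The same 2 genes were called there without the 2 arrays of high 18S signal, where adjusted p was 0.0576 for Grin2d, 0.0588 for Gria4, 0.0675 for Grin2b and 0.0766 for Gria3. Gria1 and Grin3a were lower in both genotypes in each of 21 alternative analyses. In wild type cultures, Gria3 and Gria4 were also lower in all 21. When arrays were set to the same median, 3 genes were lower in knockout and 5 in wild type cultures. Over all genes tested, that scaling gave 4363 higher and 1127 lower in knockout and 5189 higher and 1245 lower in wild type cultures. The scaling of the authors gave 1260 higher and 1939 lower in knockout and 1593 higher and 2262 lower in wild type cultures.

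The comparison of genotypes asked whether the subunits differed without Bmi1, a Polycomb group protein. In untreated cultures 0 of 7 genes were called, with 0 at an unadjusted p under 0.05. Among all genes 0.377% were called (43 genes, or 23 with consecutive arrays as a replicate block), and 990 had an unadjusted p under 0.05. The largest of the 7 differences was that of Grin2b, at a log2 value of 0.28 (SE 0.14, adjusted p = 0.656). The 95% intervals reached from -0.64 to 0.59 over the 7 genes. Gria4, at a log2 value of -0.14 (adjusted p = 0.802), had all knockout below all wild type arrays, and the other genes overlapped. Separation of 3 arrays from 3 can arise by chance, and its share over all genes was not counted, so it is not read as a difference.

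With Shh, 0 of 7 genes were called for genotype, and 1, Gria3, had an unadjusted p under 0.05 (1113 genes overall). Among all genes 0.728% were called (83 genes, or 50 with the block). Knockout exceeded wild type cultures 1.74-fold in Gria3 (log2 0.80, SE 0.19, 95% interval 0.38 to 1.23, adjusted p = 0.127), with both knockout arrays above both wild type arrays. Its dimmer probe set ran the same way, at 0.70 (adjusted p = 0.495). The adjusted p of Gria3 ranged from 0.0703 to 0.396 over the alternatives. Gria2, with a log2 difference of 0.24 (adjusted p = 0.755), also had both knockout above both wild type arrays, and the other 5 genes overlapped. With so few arrays per group such separation can arise by chance, and its share over all genes was not counted.

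The difference in the Shh effect between genotypes was not called for any of the 7 genes, while 0.00877% of all genes were. Gria3 had the largest value, 0.65 (SE 0.24, adjusted p = 0.962), and it was 1 of 561 genes at an unadjusted p under 0.05. Gria1 followed with 0.43 (SE 0.35, adjusted p = 0.9998). Averaged over both treatments, 0 of 7 were called against 1.54% of all genes, with Gria3 at 0.48 (SE 0.12, adjusted p = 0.108), 1 of 1479 genes with an unadjusted p under 0.05.

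**Figure D3:**
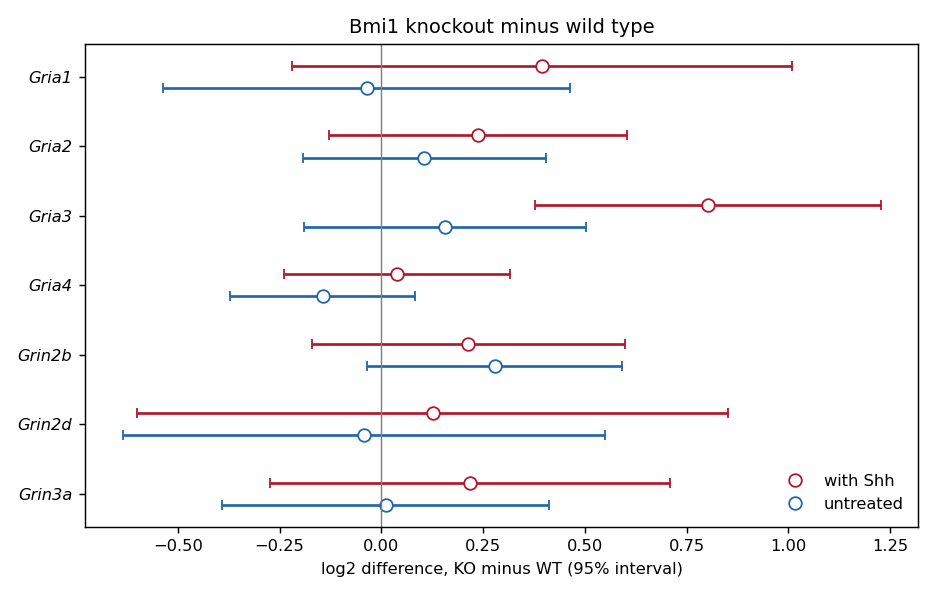
Log2 difference of knockout minus wild type cultures for the 7 subunit genes tested, with 95% intervals, with Shh (red, upper) and untreated (blue, lower). All points are open because none passed an adjusted p of 0.05. The interval of Gria3 with Shh, 0.38 to 1.23, lies above 0.

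Gria3 is X-linked, and the signal of sex-linked genes differed between arrays. Xist, the RNA that silences an X chromosome, read 4100.0 on knockout Shh replicate 8 and 36.3 on replicate 10, against 66.5 and 24.1 on the wild type Shh arrays. Gria3 read 332 on the knockout Shh array with high Xist and 379.6 on the one with low Xist. In untreated cultures Xist read 5496, 31.8 and 4496 on knockout replicates 2, 4 and 6, and 4723, 3841 and 55.6 on wild type replicates 1, 3 and 5. Arrays with high and low Xist were thus not evenly spread over the 4 groups. The part of sex in the Gria3 values, for genotype or for Shh, was not tested. Markers of other cells also differed with Shh between genotypes, where 0.728% of all genes were called. Of 6 oligodendrocyte lineage genes tested, 3 were higher in the knockout, led by the transcription factor Sox10 (log2 1.28) and the proteoglycan Cspg4 (1.15). Of 10 astrocyte and Bergmann glia genes, 2 were higher (Gdf10 at 1.09 and Sparcl1 at 0.67). Of 8 inhibitory interneuron genes 1 was higher (Slc6a5 at 1.60), and of 9 microglial genes 1 was lower (C1qa at -1.25). Slc6a5 was under the filter with Shh in wild type cultures and passed it through the other groups. Over all genes, the 83 calls for genotype with Shh fell to 3 with only the compared arrays. How these marker calls held under the alternatives is not given here. The summed signal of the oligodendrocyte list was 11481 to 14100.3 in knockout and 10112 to 10657 in wild type cultures with Shh, and that of the astrocyte list 27286 to 30902 and 21730.2 to 23463. Their part in the Gria3 values was not tested.

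Markers of other cell types moved with Shh alongside the subunits, most of them down and some up. Among all genes tested, 17% were lower and 11% higher with Shh in knockout, and 19.8% and 14% in wild type cultures. The 9 Purkinje cell genes tested were lower in both genotypes, with a median log2 difference of -2.26 in knockout and -2.27 in wild type cultures, among them the calcium-binding protein Calb1 (-2.43 and -2.46). Of these, Slc1a6 was under the filter with Shh in knockout cultures only, and Ppp1r17 passed it through its untreated arrays alone. The 4 endothelial genes tested all passed it that way, so that they were lower with Shh was set by the filter. The summed signal of the 6 endothelial genes, tested or not, was 176 to 188 in knockout and 213 to 267 in wild type cultures with Shh, against 3616 to 3784 in untreated knockout and 2973 to 4130.2 in untreated wild type cultures. Among 10 astrocyte and Bergmann glia genes 8 were lower in each genotype (medians -1.17 and -1.77) and 1, Gfap, was higher in knockout cultures (0.54, adjusted p = 0.0372, up to 0.166 with 1 array left out), with the Bergmann glia gene Gdf10 at -3.08 in knockout and -4.10 in wild type cultures. Of 8 inhibitory interneuron genes 5 were lower in knockout and 6 in wild type cultures (medians -0.71 and -0.85). Gad2 and Slc6a5 were under the filter with Shh in wild type cultures only, and passed it through the other groups. Of 6 oligodendrocyte lineage genes 3 were lower in knockout and 4 in wild type cultures (-0.39 and -1.32). In that lineage Pdgfra was higher in both genotypes (0.47 and 0.62). Its knockout call was lost without replicate 4 or 6 (0.0907 and 0.0857) and without Shh replicate 8 or 10 (log2 0.48 and 0.45). It was also lost there with the mean of all probe sets (0.17, adjusted p = 0.329). The wild type call was lost without Shh replicate 7 (log2 0.59). Of 9 microglial genes 5 were lower in each genotype, 2 were higher in knockout (Ptprc at 1.12 and Cd68 at 0.75) and 1 in wild type cultures (Ptprc at 0.98). The Cd68 call was lost without replicate 2, 4 or 10 (0.0675 to 0.208). The summed signal of 6 fibroblast genes was 397 to 426 in knockout and 487 to 541 in wild type cultures with Shh, against 2063 to 2823 and 1823 to 2406 in untreated knockout and wild type cultures.

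Summed over 9 Purkinje cell genes with a probe set, the signal was 7658 to 9693 in knockout and 7317 to 7740 in wild type cultures with Shh, against 28169 to 51224 in untreated knockout and 23495 to 39919 in untreated wild type cultures. The astrocyte and Bergmann glia sum was 27286 to 30902 and 21730.2 to 23463 with Shh, against 57244 to 60195 and 51862 to 66153 without it. No gene of any marker list was at the floor on all arrays. For the cells named in the labels, of 7 granule precursor genes 4 were higher in each genotype (medians 0.36 in knockout and 0.50 in wild type cultures), among them Gli1, a target and effector of Shh signalling (0.57 and 1.05). Its knockout call was lost without Shh replicate 8 (adjusted p = 0.0633). Of 14 genes listed for postmitotic granule neurons, 3 were lower in knockout, near the 17% of all genes, and 7 in wild type cultures (medians -0.17 and -0.31). The list holds Neurod1, Zic1, Zic2 and Pax6, which are not restricted to postmitotic cells. Its counts and medians are therefore not read as those of postmitotic neurons alone. Among the 14, Cbln3 passed the filter through its untreated arrays alone. Gria1, Gria4 and Grin2d are also expressed in glia, Purkinje cells or interneurons of the cerebellum, and the part of these cells in the subunit values was not tested.

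**Figure D4:**
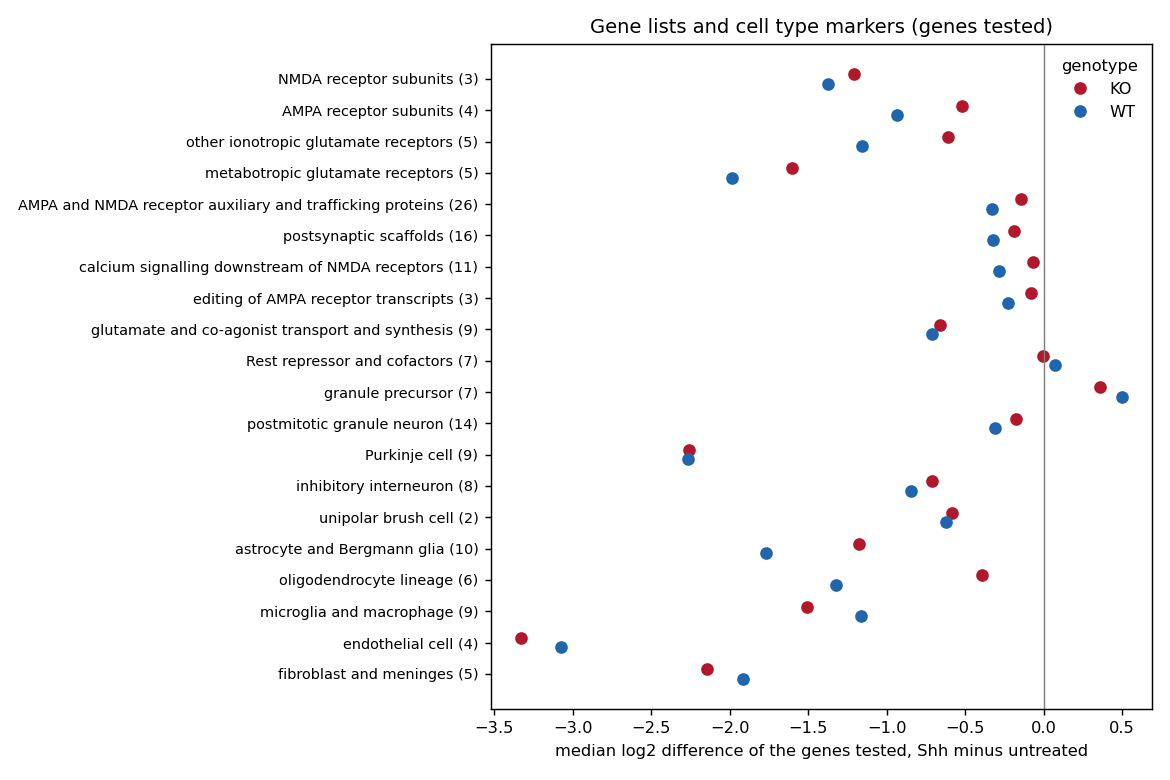
Median log2 difference of Shh-treated minus untreated cultures for each gene list, over the genes tested (number in parentheses), in knockout (red, upper) and wild type cultures (blue, lower). Endothelial markers, which passed the filter through untreated arrays alone, and Purkinje cell markers lie below -2 in both genotypes, and the granule precursor markers lie above 0, at 0.36 and 0.50.

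Counts of other glutamate genes are read against the 17% of all genes lower with Shh in knockout and 19.8% in wild type cultures. Of 5 other ionotropic receptor genes tested, 3 were lower in knockout and 4 in wild type cultures, among them the kainate receptor subunit Grik5 (log2 -0.61 and -1.32) and the delta receptor Grid1 (-1.08 and -0.97). Grid1 passed the filter through its untreated arrays alone, so its direction was set by the filter. Grik4, Grm5 and Grm7 were under the filter with Shh in wild type cultures only. They passed it through the other groups, so the filter favoured lower values with Shh there. The Grid1 call in wild type was lost without Shh replicate 7 (log2 -0.77). Of 5 metabotropic receptor genes, 3 were lower in knockout and 4 in wild type cultures. In each of these 2 lists, 2 of the 5 genes were under the filter with Shh in wild type cultures and passed it through other groups. Those counts of 4 are therefore not read against the share of all genes. Grm5, a receptor coupled to phospholipase C, was lower at -2.30 in knockout and -3.54 in wild type cultures, and Grm3 at -1.98 and -2.32. The Grik5 call in knockout cultures was lost without Shh replicate 8 (log2 -0.45) and with arrays set to the same median (-0.32, adjusted p = 0.0866). With Shh, Grm5 was higher in the knockout, 2.16-fold over wild type cultures, where it was under the filter (log2 1.11, SE 0.19, adjusted p = 0.0373). This call was lost with the replicate block (0.0940), without any 1 of the 4 Shh arrays (log2 0.97 to 1.26) and without replicate 2, 4, 5 or 6 (0.0655 to 0.0717). It was also lost with quantile normalization (0.0629) and with the mean of all probe sets (log2 0.79, adjusted p = 0.270).

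Among 26 auxiliary and trafficking proteins of AMPA and NMDA receptors, 8 were lower and 1 higher (Nptx1, at 0.88) in knockout, and 8 were lower in wild type cultures. Shisa6, which keeps AMPA receptors at synapses, was lower at -1.79 in knockout and -2.16 in wild type cultures, and the secreted protein Olfm2 was lower at -1.18 and -0.84. Shisa6 passed the filter through its untreated arrays alone, as did Cacng8, so their direction was set by the filter. Of the 26 genes, 2 were under the filter with Shh in knockout and 5 in wild type cultures. The Olfm2 call in wild type cultures was lost without Shh replicate 9 (adjusted p = 0.126) and under both other scalings (0.0814 and 0.126). The call of Shisa6 in knockout cultures was lost without Shh replicate 10 (adjusted p = 0.0960). Nptx1, a neuronal pentraxin that clusters AMPA receptors, was higher in the knockout with Shh, 1.94-fold over wild type (log2 0.96, SE 0.15, adjusted p = 0.0303). This call was lost with the block (0.113) and without any 1 of the 4 Shh arrays (0.109 to 0.169) or replicate 5 (0.0542). The AMPA receptor trafficking protein Cpt1c was higher in knockout cultures averaged over treatments, at 0.49 (SE 0.08, adjusted p = 0.0245), and lost its call without replicate 1, 2, 6, 7, 8, 9 or 10 (0.0544 to 0.0955).

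Among 16 postsynaptic scaffold genes, 2 were lower in knockout and 4 in wild type cultures, shares near those of all genes, including the adhesion protein Nlgn3 at -0.99 and -1.23. The Nlgn3 call in knockout cultures was lost with the mean of all probe sets (log2 -0.35, adjusted p = 0.177). Of 11 genes of calcium signalling downstream of NMDA receptors, 4 were lower and 1 higher in each genotype, and Rasgrf1 passed the filter through untreated arrays alone. The higher one was the transcription factor Creb1 (0.50 in knockout and 0.47 in wild type cultures), and neuronal nitric oxide synthase Nos1 was lower at -1.48 in knockout and -1.43 in wild type cultures. Of 3 genes listed for the editing of AMPA receptor transcripts, Adarb2 was lower in wild type cultures (-0.90) and Adar was higher in both genotypes (0.50 and 0.49). The Adar call was lost in knockout without replicate 4 or 6 (adjusted p = 0.0727 and 0.0535) and without Shh replicate 8 or 10 (log2 0.45 and 0.55). In wild type cultures it was lost without replicate 5 (0.0517) and without Shh replicate 7 or 9 (log2 0.54 and 0.45). The wild type call was also lost with the mean of all probe sets (0.24, adjusted p = 0.130). Adarb1, which edits the calcium-permeability site of Gria2, was not called in either genotype. Of 9 genes of glutamate and co-agonist transport and synthesis, 5 were lower in knockout and 7 in wild type cultures, with the Purkinje cell transporter Slc1a6 at -4.42 and -3.75 and the glial transporter Slc1a3 at -1.38 and -2.09. The Slc1a3 call in knockout cultures was lost without Shh replicate 10 (adjusted p = 0.0616). The Rest repressor and its cofactors had 1 gene higher (Rcor1, at 0.50 in knockout and 0.52 in wild type cultures) and 1 lower (Ctdsp1, at -0.54 and -0.38) of 7 in each genotype, also near the shares of all genes. The Rcor1 call in knockout cultures was lost with the block (adjusted p = 0.0510) and without replicate 1, 4, 6, 7, 8, 9 or 10 (0.0564 to 0.238), and in wild type without replicate 1, 3, 7 or 9 (0.0797 to 0.162). The Ctdsp1 call in wild type cultures was lost without replicate 3 or 5 (0.0559 and 0.0620) and without Shh replicate 7 or 9 (log2 -0.40 and -0.36). With arrays set to the same median it was lost in knockout (log2 -0.24, adjusted p = 0.0850) and in wild type cultures (-0.03, 0.814). No gene of the 8 lists was called for genotype in untreated cultures or for the difference in Shh effect.

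For 1 subunit of each family, the genes whose log2 signal followed it most closely over the 10 arrays are given as a description, since the arrays fall into treated and untreated ones. The subunit was taken by its mean log2 signal, which picks a probe set to describe and ranks no levels. For Grin3a they were 2900026A02Rik (Pearson r 0.991), Efhd1 (0.989) and Slc13a5 (0.988). For Gria2 they were Adam23 (0.950), Zfp784 (0.943) and Pdxk (0.928). Between subunits, Gria1 and Grin3a correlated at 0.968 over the 10 arrays. With the group means removed, their correlation was 0.20.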

How the data were processed

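RNA of 10 cultures was measured on 10 Mouse430_2 arrays. The deposited intensity values are linear and were produced by the authors in GCOS 1.2 by the MAS5 method, per the submitters' processing notes, and each array has a trimmed mean (2% off each end) of 500. Signals under 20.9, the 25th percentile of all values, were raised to it, log2 was taken, and each gene was represented by its brightest probe set. Control probe sets (64) were left out. Of 45101 probe sets, 34945 had 1 gene symbol, 932 had several and 9160 had none listed, and 34741 matched RefSeq GRCm38.p6 by Entrez identifier. Genes with a mean log2 signal of at least 6.25 were tested.

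A linear model with 1 mean per group (6 residual degrees of freedom) was fitted across all 11405 genes (limma 3.58.1, R 4.3.3), in 6 comparisons, with moderated two-sided tests, Benjamini-Hochberg adjustment and a threshold of 0.05. The scripts were tested on simulated data. The number of arrays limits the precision. Named were all 10 subunits, and per list and comparison at most the 3 called genes with the largest differences, plus markers that define a cell type. The members and lists were chosen with earlier results of these data known.

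The groups share no replicate numbers in the labels. Knockout and wild type arrays with consecutive numbers deviated together from their group means (r = 0.278, 0.120 and 0.218 untreated, with other untreated pairs between -0.265 and 0.0529), so consecutive arrays were tried as a replicate block. With Shh, 2 arrays per group give a single value, 0.160 for consecutive and -0.160 for crossed numbers by construction, which checks nothing. This pairing comes from the data alone. Alternatives changed the floor, the scaling, the filter, the choice of probe set, the variance model and the arrays used.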

Additional observations from a re-analysis of the deposited data

How the results depend on the processing

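The count of 6 lower subunit genes with Shh in knockout cultures was 3 with arrays scaled to the same median, 2 with the mean of all probe sets, 2 without the 2 arrays of high 18S signal and 2 to 6 when each replicate was left out. In wild type cultures it was 4 to 6 under all alternatives. The genotype comparisons and the difference in Shh effect gave 0 called subunit genes under every alternative. With the mean of all probe sets, Grin2b and Grin2d were under the filter and not tested. The counts under that alternative therefore cover fewer than 7 genes. The replicate block changed no count of subunit genes (6 and 6 with Shh). It moved the genes called for genotype to 23 in untreated cultures, against 43 without it, and to 50 with Shh, against 83, and the difference in Shh effect to 0, against 1. The genes called ranged from 10 to 82 for genotype in untreated cultures, 3 to 134 with Shh, 0 to 8 for the difference in Shh effect and 80 to 262 averaged over treatments. With Shh they ranged from 1893 to 5490 in knockout and 2380 to 6434 in wild type cultures.

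Uncalled values changed sign as follows. With arrays scaled to the same median, Gria2 with Shh was 0.11 in knockout and 0.0331 in wild type cultures, and Gria4 for genotype with Shh was -0.0254. With the mean of all probe sets, Grin3a for genotype in untreated cultures was -0.0274. Without the arrays of high 18S signal, Gria2 was -0.0551 and Gria3 -0.0658 for genotype in untreated cultures, Grin2d -0.0646 averaged over treatments, and Grin2b 0.0323 for the difference in Shh effect. Leaving out each replicate gave these ranges for genotype in untreated cultures: Grin2d -0.26 to 0.30, Grin3a -0.0777 to 0.12, Gria1 -0.21 to 0.17 and Gria2 -0.0232 to 0.21. With Shh they were Grin2b -0.00551 to 0.43, Grin2d -0.13 to 0.38, Grin3a -0.0766 to 0.51 and Gria4 -0.0949 to 0.17. For the difference in Shh effect they were Grin2b -0.28 to 0.16, Grin2d -0.17 to 0.43 and Grin3a -0.0871 to 0.50, and averaged over treatments Grin2d -0.0876 to 0.21, Grin3a -0.0330 to 0.26 and Gria4 -0.12 to 0.0133. The cause was not tested. Fitting only the compared arrays gives no value for the difference in Shh effect or the average. Signals near the floor limit Grin2a and Grin2c.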
